A study of Mus musculus with 2 samples.

Results

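The 10 genes described here encode the transcriptional circuit that sets mitochondrial and fatty acid oxidation capacity in heart muscle. They are the peroxisome proliferator-activated receptors Ppara, Ppard and Pparg, the estrogen-related receptors Esrra, Esrrb and Esrrg, the coactivators Ppargc1a and Ppargc1b (PGC-1 alpha and PGC-1 beta), the respiratory gene factor Nrf1 and the mitochondrial DNA factor Tfam. They were chosen by name and are 10 of the 42462 annotated mouse genes in the deposited gene tables. Their transcripts are 63 of the 102597 transcripts listed for annotated genes. The libraries are total RNA sequencing of whole embryonic mouse heart, from healthy embryos of strain B6NCrl at embryonic day 16.5, with hearts of male and female embryos pooled. There is 1 group of 2 libraries, called replicate 1 and replicate 2, prepared with an input of 10 ng RNA, over 200 nt in size, and added spike-in RNAs. Replicate 2 pooled the hearts of 41 embryos, a number that the labels do not give for replicate 1. No treatment, mutant or second stage is in the series, so the values describe levels, transcripts and the spread between 2 pools. The labels do not say whether the pools came from separate litters, and they give both pools the same donor identifier, so the spread may be in part technical.

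PPARs and ERRs are nuclear receptors that bind DNA next to genes of fuel use. PPARs do so as dimers with a retinoid X receptor and respond to fatty acids, whereas ERRs have no known natural hormone and depend on coactivators. PGC-1 alpha and PGC-1 beta bind these receptors and NRF1 and recruit the transcription machinery. NRF1 acts on nuclear genes of the respiratory chain and of mitochondrial import, and TFAM packages mitochondrial DNA and starts its transcription. In the heart this circuit is known for the shift from glucose towards fatty acid oxidation around birth.

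Replicate 1 held 37160624 estimated counts and replicate 2 held 40360242, and spike-ins took 1.62% and 3.41% of them. All 6 heart muscle cell markers were expressed, at 12.5 to 12648 TPM per gene and library. Their summed level was 25961 TPM in replicate 1 and 25353 TPM in replicate 2. TPM, a transcript's share of all transcripts scaled to a fixed total, is a length-corrected level, so it may be compared between genes. The pools were not equal in other tissues. The 5 lung epithelium markers summed to 933 and 102 TPM, the 6 thymus markers to 68.4 and 178 TPM and the 6 skeletal muscle markers to 30.6 and 63.3 TPM. The 5 atrial markers summed to 8361 and 11490 TPM, and the 4 ventricular markers to 12861 and 10031 TPM. In whole tissue, fewer cells of a type and less RNA per cell cannot be told apart.

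Of the 10 regulators, 9 reached 1 TPM in both libraries, as did 59.1% of 21461 nuclear protein-coding genes. The levels fell into a high set of 7 genes, between 16.0 and 58.9 TPM in each library, and a low set of Pparg, Esrrb and Ppard, at 3.59 TPM or below. No gene lay between these sets. Ppargc1a was highest at 58.9 TPM ± 0.021 (SD, n = 2 libraries here and below), above 82.5% of the protein-coding genes that averaged 1 TPM or more. Tfam followed at 55.7 ± 1.63, then Esrra at 34.8 ± 3.63, Nrf1 at 28.1 ± 0.297, Ppargc1b at 19.8 ± 2.55, Esrrg at 18.9 ± 0.382 and Ppara at 16.9 ± 1.28. Ppara, the lowest of the high set, was above 53.0% of the same protein-coding genes. The low set was Pparg at 3.38 ± 0.290, Esrrb at 1.94 ± 0.262 and Ppard at 0.97 ± 0.354. Neighbours in this order were called apart where both libraries gave the same order, the deposited TPM intervals did not overlap in either, and the mean log2 ratio was over 2 SD from 0. By this rule 5 of 9 neighbour pairs stood apart. Ppargc1a and Tfam did not, nor did Esrra and Nrf1, Ppargc1b and Esrrg, or Esrrg and Ppara.

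**Figure D1:**
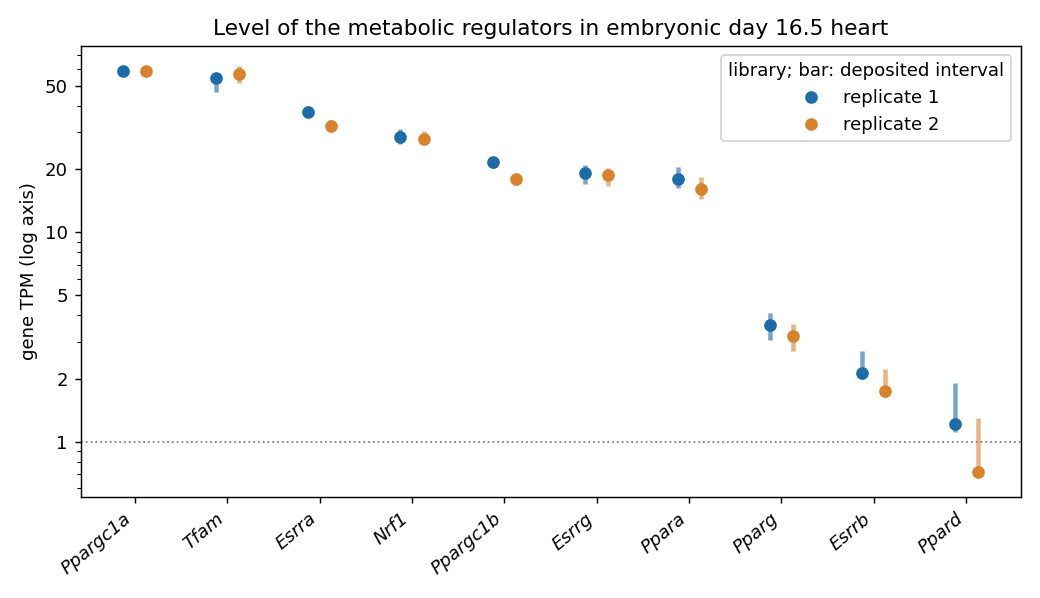
Gene TPM (log axis) of the 10 regulators, ordered by their mean, with 1 point per library and the deposited interval of each as a bar; the dotted line is 1 TPM. The 7 highest genes lie at 16.0 TPM or above in both libraries, and Pparg, Esrrb and Ppard lie at 3.59 TPM or below.

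The 2 receptor families share a fold but few long stretches of sequence, which bears on how well reads can be given to each gene. The following 33 coding bases per receptor start at the third zinc-binding cysteine codon of the DNA-binding domain. Capitals mark codons 2, 3 and 6 of the stretch, the P box, which reads the DNA half-site. Codons 3 and 6 differ between the families, whereas codon 2 is GAA or GAG in both.
Ppara: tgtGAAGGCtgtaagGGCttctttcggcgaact
Ppard: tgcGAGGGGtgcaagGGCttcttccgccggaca
Pparg: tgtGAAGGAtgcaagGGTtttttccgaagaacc
Esrra: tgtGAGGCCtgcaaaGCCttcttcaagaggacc
Esrrb: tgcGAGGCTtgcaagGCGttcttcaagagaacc
Esrrg: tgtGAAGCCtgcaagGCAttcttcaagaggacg
Over these 33 bases, PPARs matched each other at 24 to 25 positions, ERRs at 27 to 29, and a PPAR and an ERR at 21 to 23. Over whole coding regions, the longest identical run was 13 to 17 bases between PPARs and 16 to 22 bases between ERRs. No stretch of 50 bases in a transcript of any PPAR, ERR beta or gamma, Ppargc1b or Nrf1 occurred in a transcript of another annotated gene. Esrra shared 66 of its 4429 such stretches with Trmt112 and Mir6990, Ppargc1a shared 9 of 6591 and Tfam shared 3 of 4428. Stretches of 100 bases were unique to their gene for all 10.

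Ppara, the PPAR of tissues that burn fatty acids, was the main PPAR of these hearts. It stood at 17.9 TPM in replicate 1 and 16.0 TPM in replicate 2, from 969 and 954 estimated counts. Pparg, the PPAR of fat cells, stood at 3.59 and 3.18 TPM (167 and 166 counts). Ppard, the broadly expressed PPAR, stood at 1.22 and 0.72 TPM (86 and 65 counts). The 3 receptors did not overlap in either library. Ppara exceeded Pparg by a mean log2 ratio of 2.32 ± 0.015, which is 5.01-fold, and Ppard lay below Ppara by 18.1-fold (log2 -4.17 ± 0.43). Ppard also lay below Pparg, by 3.61-fold (log2 -1.85 ± 0.41).

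The Ppara gene (ENSMUSG00000022383.9) lies on the plus strand of chromosome 15 from 85734983 to 85802819 in GRCm38. Its 3 main transcripts carry the same 468-codon coding region and differ outside it. Ppara-201 held 46.5% of the gene's TPM in replicate 1 and 45.0% in replicate 2, Ppara-202 held 23.9% and 28.1%, and Ppara-203 held 11.5% and 5.56%. The short non-coding Ppara-206 held 8.20% and 20.2%, and Ppara-204, also non-coding, 9.90% and 1.15%. These last shares rest on few counts, 10.5 and 25.8 for Ppara-206 and 12.3 and 1.43 for Ppara-204, so their change between libraries is poorly measured. The 3 coding transcripts together held 81.9% and 78.7%.

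Pparg (ENSMUSG00000000440.8; chromosome 6, 115360951 to 115490399, plus strand) is made in 2 forms that differ at the start of the protein. PPAR gamma 2, known from fat, adds codons from its own first exon, and PPAR gamma 1 is made more widely. The coding start of the gamma 2 transcript, Pparg-201, is shown up to the start codon of gamma 1, with both start codons in capitals. Its first 82 bases lie in the exon at chr6:115422111-115422192, which only the gamma 2 transcript of this pair uses.
Pparg-201: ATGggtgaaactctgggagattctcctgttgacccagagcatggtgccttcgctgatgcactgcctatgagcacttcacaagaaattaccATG
The extra 90 coding bases make 505 codons in place of 475. The tables list both transcripts with lengths other than in the annotation release used for these exons. Pparg-202, the gamma 1 form, held 81.7% of the gene in replicate 1 and 100% in replicate 2. Pparg-201 held 18.3%, from 29.2 estimated counts, and 0%. By these estimates gamma 1 had the larger share in both pools, and gamma 2 had 0 counts in replicate 2. In replicate 1 the deposited intervals overlapped, at 1.42 to 3.59 TPM for Pparg-202 and 0.00028 to 2.05 TPM for Pparg-201. By the deposited posterior means, gamma 2 held 29.7% and 9.66%, so its presence in replicate 2 depends on the estimate used. Ppard (ENSMUSG00000002250.11; chromosome 17, 28232700 to 28301474) came mainly from its full coding transcript Ppard-201, with 73.7% and 95.0% of its TPM. The rest was Ppard-202, a retained intron transcript, at 26.3% and 4.96%, from 11.4 and 1.41 counts. By the deposited posterior means, Ppard-201 held 58.2% and 67.8%.

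PPARs bind DNA with a retinoid X receptor, and all 3 of these partners reached 1 TPM in both libraries. Rxrb was highest at 28.1 and 26.2 TPM, Rxra stood at 7.02 and 5.21 TPM, and Rxrg at 1.08 and 1.16 TPM. The libraries agree on this order, and Rxrb lay above Ppara in both.

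Esrra, the ERR that is broadly expressed in oxidative tissues, was the highest ERR at gene level. It stood at 37.4 and 32.2 TPM (1978 and 1829 counts). Esrrg, the ERR most closely tied to the perinatal heart, stood at 19.2 and 18.6 TPM (1531 and 1645 counts). Esrrb, better known from placenta and pluripotent cells, stood at 2.12 and 1.75 TPM (237 and 216 counts). No ERR overlapped another in either library, with Esrra 1.84-fold above Esrrg (log2 0.88 ± 0.12; in counts with no length correction log2 0.26, no longer apart) and 18.02-fold above Esrrb (log2 4.17 ± 0.045). Esrrg was 9.81-fold above Esrrb (log2 3.29 ± 0.17). Esrra also exceeded Ppara, by 2.05-fold (log2 1.04 ± 0.042).

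Most Esrra signal came from a full coding transcript. Esrra (ENSMUSG00000024955.9) lies on the minus strand of chromosome 19 from 6910977 to 6921813. Esrra-201, with 422 codons, held 89.8% and 85.6%, and the retained intron transcript Esrra-202 held 5.68% and 9.23%. The 3′ end of the gene overlaps 73 bases of Trmt112 on the other strand. Trmt112 stood at 66.0 and 73.4 TPM, and the sources used here do not state whether reads were assigned by strand. Its part in the Esrra level was not tested.

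In TPM, Esrrg was the receptor with the most signal outside full coding transcripts. Esrrg (ENSMUSG00000026610.9) spans chromosome 1 from 187608791 to 188214885 on the plus strand. Esrrg-201, with 458 codons, held 48.5% and 51.1%, and Esrrg-203, with 435 codons and other first exons, held 6.16% and 3.14%. The 507-nt non-coding Esrrg-205 held 36.4% and 30.2% from only 76 and 68 counts, since a short transcript needs few reads for a high TPM. Its exons share no base with those of Esrrg-201. Reads of unspliced Esrrg RNA, which total RNA can hold, cannot be told apart here from reads of Esrrg-205. Esrrg-204, whose annotated coding part has 52 codons, held 8.92% and 15.6%. The full coding level of Esrrg was thus 10.5 and 10.1 TPM, 54.7% and 54.2% of the gene value. In counts, full coding transcripts held 94.0% of Esrrg in each library. Esrrb (ENSMUSG00000021255.13; chromosome 12, 86361117 to 86521628) came from full coding transcripts alone. Esrrb-204, with 438 codons, held 75.5% and 60.3%, and Esrrb-203, with 454 codons, held 24.5% and 39.7%.

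Ppargc1a, the inducible PGC-1, was the highest of the 10 genes and the most even between libraries in TPM. It stood at 58.89 TPM in replicate 1 and 58.92 TPM in replicate 2, from 5844 and 6628 estimated counts. Ppargc1b stood at 21.57 and 17.96 TPM (1949 and 1831 counts). The libraries did not overlap between these genes, and Ppargc1a was 2.99-fold above Ppargc1b (log2 1.58 ± 0.19).

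The Ppargc1a level was made up mostly of a transcript that does not encode the whole protein. Ppargc1a (ENSMUSG00000029167.9) lies on the minus strand of chromosome 5 from 51454250 to 51567726. Ppargc1a-201 is annotated as a target of nonsense-mediated decay, the removal of RNAs with an early stop codon, and it has 270 codons against 797 in the full coding Ppargc1a-203. The difference arises at an exon that is 31 bases longer in Ppargc1a-201 (chr5:51490091-51490121). The coding sequence across this junction is shown for both transcripts, and capitals mark what follows the shared 800 coding bases, which in Ppargc1a-201 is 10 bases and a stop codon.
Ppargc1a-201: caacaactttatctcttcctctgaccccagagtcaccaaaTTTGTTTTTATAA
Ppargc1a-203: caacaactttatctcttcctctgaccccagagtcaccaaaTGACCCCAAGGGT
The protein that ends at this stop is known as NT-PGC-1 alpha, a truncated but active form. Ppargc1a-201 held 67.3% of the gene's TPM in replicate 1 and 66.0% in replicate 2 (39.7 and 38.9 TPM). Ppargc1a-203 held 30.6% and 32.6% (18.04 and 19.18 TPM). The order is the same in both libraries, but it reverses in counts, where Ppargc1a-203 had 3067 and 3621 and Ppargc1a-201 had 2753 and 2995. Ppargc1a-203 is 6464 nt long in the tables and Ppargc1a-201 2698 nt, and each read weighs more in the shorter one. In the later annotation release, where Ppargc1a-201 has 3041 nt, its exons share 3010 bases with Ppargc1a-203 and only the 31 bases above are its own. Ppargc1a-203 has 3454 bases of its own, mainly a longer 3′ end. The estimate therefore depends on reads along the 3′ end as well as on reads across the 31 bases, and the deposited tables do not separate these sources. Ppargc1b (ENSMUSG00000033871.10) showed no such split. Its full coding Ppargc1b-202, with 1014 codons, held 94.7% and 96.3%, and the non-coding Ppargc1b-203 held 5.32% and 3.65%.

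Nrf1, the activator of nuclear respiratory genes, stood at 28.3 and 27.9 TPM (1861 and 2135 counts), with overlapping deposited intervals of 26.3 to 31.1 TPM and 26.3 to 30.5 TPM. Nrf1 (ENSMUSG00000058440.10; chromosome 6, 30047988 to 30153458, plus strand) had the most transcripts of the set, 21, of which 6 held 5% or more in either library. Nrf1-210 and Nrf1-211 encode the same 503 codons and differ by 3 exon bases found only in the first and 292 found only in the second. Nrf1-210 held 36.6% and 30.5%, and Nrf1-211 held 21.8% and 31.0%, so their order is not the same in both libraries. Nrf1-202, with 534 codons, held 10.5% and 15.5%. By the deposited posterior means it held 6.15% and 9.20%, and its deposited interval in replicate 1 began at 0.0015 TPM. The 3 part coding transcripts, Nrf1-214 (13.4% and 9.01%), Nrf1-212 (3.53% and 6.07%) and Nrf1-216 (6.56% and 2.10%), made up most of the rest. Full coding transcripts summed to 20.2 and 21.8 TPM. Nrf1 is a different gene from the stress response factors Nfe2l1 and Nfe2l2, whose proteins are also called NRF1 and NRF2, and which stood at 75.1 and 64.5 TPM and at 51.2 and 46.3 TPM.

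Tfam stood at 54.5 and 56.9 TPM at gene level (1900 and 2481 counts), but its full coding transcript held the lowest share of any of the 10 genes. Tfam (ENSMUSG00000003923.10) lies on the minus strand of chromosome 10 from 71225464 to 71238280. Tfam-201 encodes 243 codons, starting with the sequence that directs the protein to mitochondria. Tfam-202 is spliced from an earlier point of the same first exon and reads another start of 17 bases, giving 215 codons. The coding starts are shown in capitals, followed by the first 30 bases that both transcripts share.
Tfam-201: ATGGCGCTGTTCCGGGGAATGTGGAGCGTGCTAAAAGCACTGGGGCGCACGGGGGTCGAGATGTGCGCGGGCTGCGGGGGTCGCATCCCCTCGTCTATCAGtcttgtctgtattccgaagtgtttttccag
Tfam-202: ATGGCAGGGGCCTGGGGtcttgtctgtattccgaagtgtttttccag
Tfam-201 held 23.2% of the gene in replicate 1 and 25.9% in replicate 2 (12.7 and 14.7 TPM), close to each other. Tfam-202 held 4.53% and 35.2%, from 44.9 and 404 estimated counts. Tfam-205, a part coding transcript of 472 nt, held 32.4% and 15.8%, and Tfam-204, a non-coding transcript of 596 nt, held 36.6% and 21.2%. By these estimates the short transcripts changed places between the libraries while their sum moved little. The deposited intervals of Tfam-204 (12.6 to 22.8 and 6.37 to 18.2 TPM) overlapped between libraries. So did those of Tfam-205 (8.40 to 21.5 and 3.71 to 15.1 TPM). Those of Tfam-202 (0.00057 to 10.2 and 12.2 to 25.8 TPM) did not. By the deposited posterior means, Tfam-202 held 9.65% and 33.2%. All 779 bases of Tfam-202 lie in exons of Tfam-201, so the deposited estimate can set them apart only by reads across the splice junction and by where coverage ends. In counts Tfam-201 took 72.4% and 71.5% of the gene.

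Full coding transcripts were taken as those with at least 90% of the longest annotated coding part of their gene and without the decay annotation. They held under 50% of the mean TPM in 2 of the 9 regulators that averaged 1 TPM or more, Ppargc1a (31.6% ± 1.36) and Tfam (24.5% ± 1.89). The same was true of 25.4% of 9493 protein-coding genes with several transcripts and the same minimum level, so the count is not far from the background. In counts, no regulator was under 50%. A transcript moved by over 20 percentage points between the libraries in 1 of 9 regulators with a mean of at least 100 counts, Tfam, against 6.90% of 9015 genes.

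**Figure D2:**
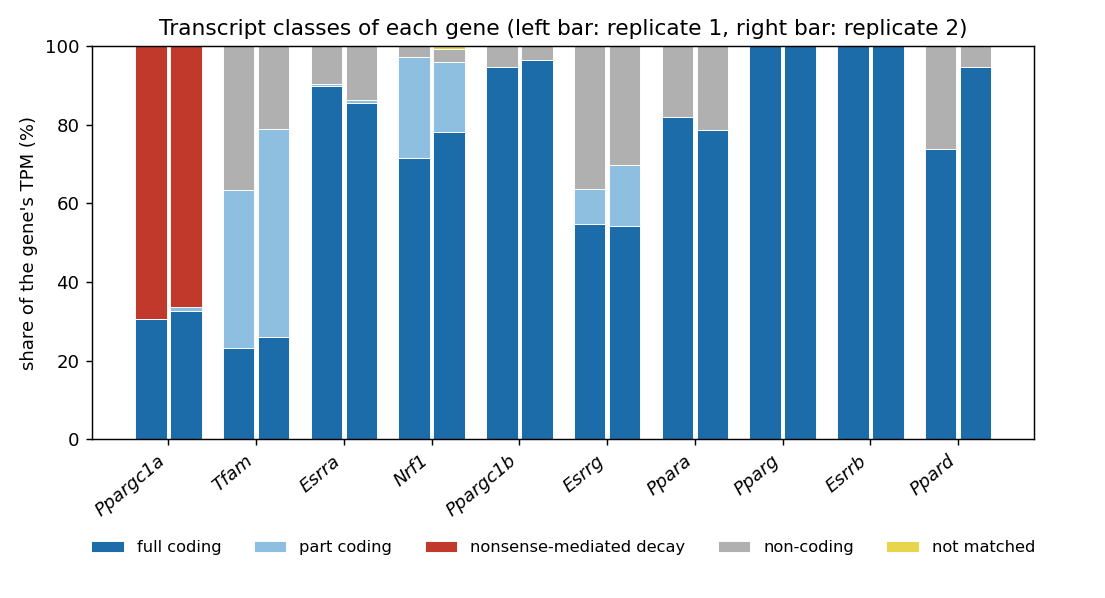
Share of each gene's TPM (%) by transcript class in replicate 1 (left bar) and replicate 2 (right bar); classes are full coding, part coding, nonsense-mediated decay, non-coding and not matched to the annotation. Full coding transcripts hold 23.2% and 25.9% in Tfam and 30.6% and 32.6% in Ppargc1a, against 94.7% and 96.3% in Ppargc1b.

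**Figure D3:**
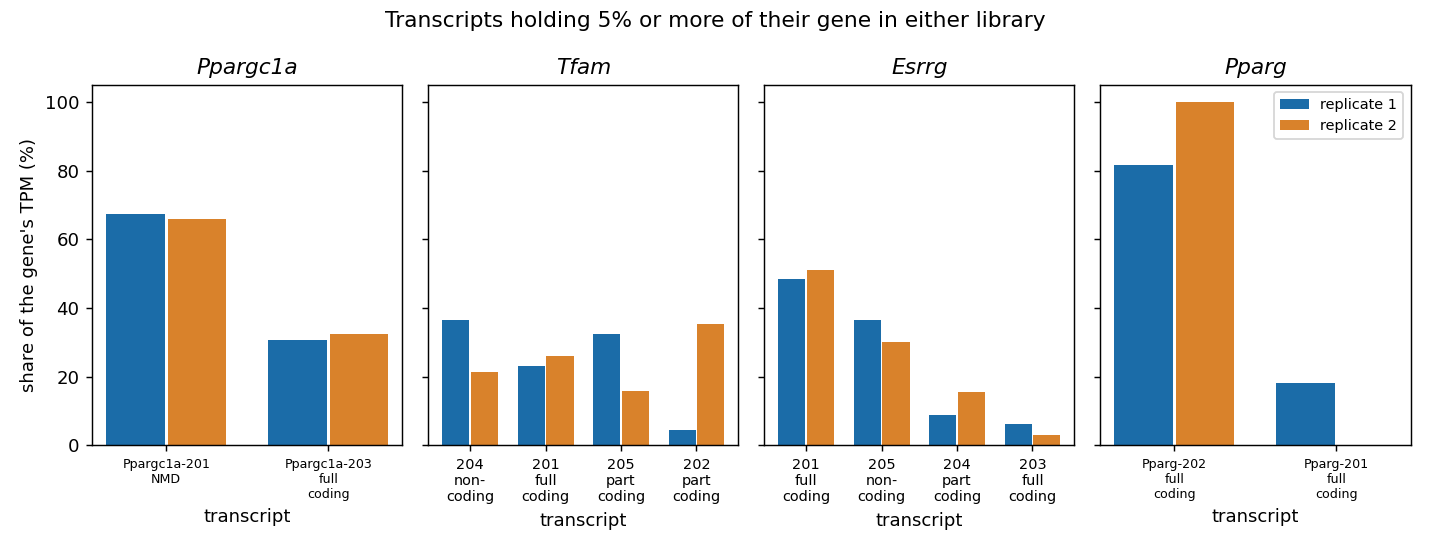
Share of the gene's TPM (%) for each transcript of Ppargc1a, Tfam, Esrrg and Pparg that holds 5% or more in either library, with 1 bar per library; NMD is nonsense-mediated decay. The Ppargc1a shares are alike in both libraries, whereas Tfam-202 goes from 4.53% to 35.2%.

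By full coding transcripts only, a measure added after the data were seen, the order of the regulators changed. Esrra was first at 30.6 TPM ± 4.24, followed by Nrf1 at 20.98 ± 1.10, Ppargc1b at 18.9 ± 2.21 and Ppargc1a at 18.6 ± 0.811. Tfam at 13.7 ± 1.45, Ppara at 13.6 ± 1.42 and Esrrg at 10.3 ± 0.276 came next, and Pparg, Esrrb and Ppard remained last. All 9 gene pairs set for comparison were apart at gene level, and 7 of them kept their direction with full coding transcripts. The exceptions were Ppargc1a and Ppargc1b, whose log2 ratio went from 1.58 ± 0.19 to -0.016 ± 0.23, and Nrf1 and Tfam, whose ratio went from -0.99 ± 0.057 to 0.62 ± 0.078. In counts with no length correction, Nrf1 and Tfam were at -0.12 and no longer apart. The reversal of Nrf1 and Tfam also depends on the cut that defines full coding transcripts. That cut leaves out Tfam-202, which has 215 codons against 243 in Tfam-201 and held 2.47 and 20.03 TPM. Full coding levels were 12.66 and 14.71 TPM for Tfam and 20.21 and 21.76 TPM for Nrf1. With Tfam-202 counted in, the libraries would disagree on the order. No other cut was tried. For Ppargc1a and Ppargc1b by full coding transcripts, the libraries disagreed on the order, at -0.18 and 0.15. Ppargc1a over Ppargc1b and Tfam over Nrf1 were thus orders of all RNA from each gene. Whether they hold for RNA that encodes the whole protein rests on the estimated split among overlapping transcripts, and these values do not settle it. The PPAR and ERR orders held with all and with full coding transcripts in TPM, and Esrra over Esrrg widened from 1.84-fold to 2.96-fold. That widening is in TPM only, where the short Esrrg-205 weighs much. In counts, full coding transcripts held 94.0% of Esrrg in each library. The Esrra to Esrrg ratio in counts with no length correction was log2 0.26.

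**Figure D4:**
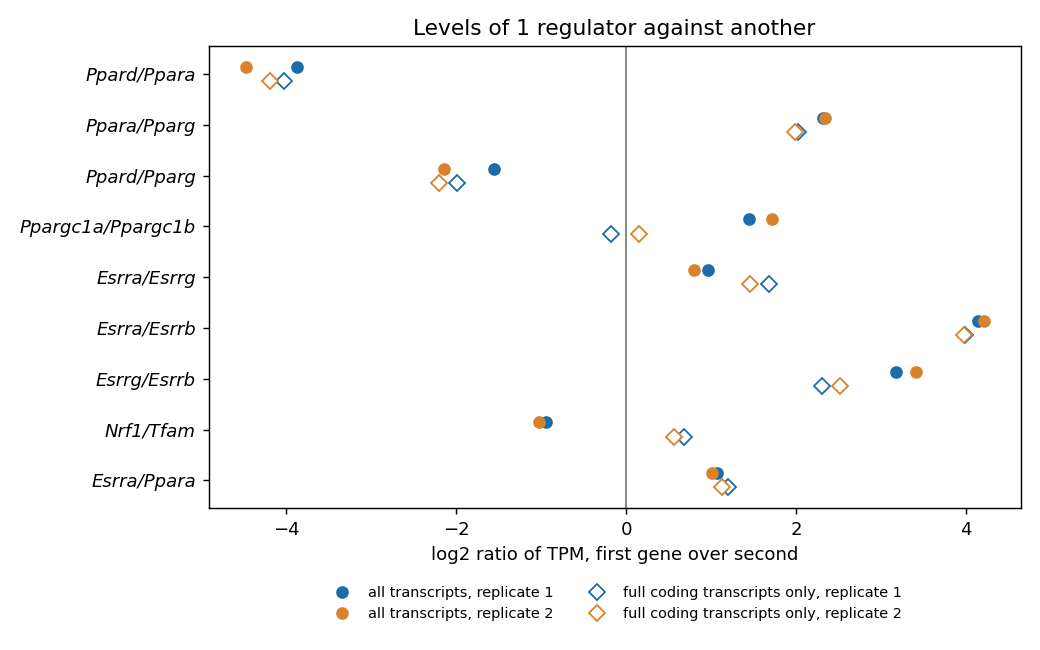
Log2 ratio of TPM, first gene over second, for 9 pairs of regulators, with filled circles for all transcripts and open diamonds for full coding transcripts only, 1 of each per library. The diamonds of Ppargc1a/Ppargc1b lie at -0.18 and 0.15, on either side of 0, and those of Nrf1/Tfam lie right of 0 while the circles lie left of it.

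Between the libraries, none of the 9 regulators averaging 1 TPM or more was over 1.5-fold apart, against 7.11% of 12974 protein-coding genes at that level. That share was 3.36% at a mean of at least 5 TPM. Ratios were taken from counts scaled by TMM, as replicate 2 over replicate 1 on the log2 scale, with 95% intervals that cover counting error only. Tfam had the largest ratio of these 9, 0.28 (0.19 to 0.37), and Ppargc1a 0.076 (0.025 to 0.13). Esrra was at -0.22 (-0.31 to -0.13), Ppargc1b at -0.20 (-0.29 to -0.10) and Esrrb at -0.24 (-0.51 to 0.033). Nrf1, Esrrg, Ppara and Pparg lay between -0.13 and 0.093. From TPM + 0.1 in place of counts, Tfam was at 0.059, Ppargc1a at 0.00073 and Nrf1 at -0.022. Between the libraries, the effective length of the Tfam gene, averaged over its transcripts, went from 1304 to 1472 bases, and the TPM held by all annotated mouse genes from 965836 to 931615. How much each adds to the difference between the ratios was not tested. Ppard, just under 1 TPM on average, was at -0.51 (-0.997 to -0.028), or 1.42-fold. When libraries were scaled by their spike-ins instead, all protein-coding genes moved together to a median of -1.10, and every regulator, Tfam included, then read lower in replicate 2. The lung, thymus, skeletal muscle and chamber markers given above also differed between the pools, and their part in these small ratios was not tested.

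Promoter sequence was searched for the letters bound by these factors, since NRF1, ERRs and their partner GABP are known to act on genes of the same circuit. Promoters were taken from RefSeq (GRCm38.p6) as 250 bases before to 50 after a start. Promoters of 1 chromosome were not used, which left out Ppargc1b. The other 9 of the 10 genes had 16 promoters. The NRF1 letters GCATGCGC were found in 2 of 9 regulators, Ppara and Esrra, against 3.07% of all 26742 genes in the table. The GABP letters CCGGAAGT were found in 1 of 9, Tfam, against 4.35%. The ERR letters TCAAGGTCA (0.456% of genes) and the PPAR and RXR letters AGGTCANAGGTCA (0.0486%) were in none of the 9. Both strands were searched. The matches are shown in capitals within 30 bases, read along the gene.
Ppara, chr15:85735735-85735764, plus strand: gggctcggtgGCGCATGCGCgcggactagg
Esrra, chr19:6921824-6921853, minus strand: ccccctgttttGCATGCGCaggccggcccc
Tfam, chr10:71238073-71238102, minus strand: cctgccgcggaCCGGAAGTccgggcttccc
In Ppara the letters occur on both strands and overlap, so 10 bases are in capitals. The matches end 21, 26 and 39 bases before the RefSeq start for Ppara, Esrra and Tfam. The Ppara match (85735745 to 85735754) lies inside the annotated gene, past its annotated start at 85734983, and in none of its annotated exons. The Tfam match lies inside the first exon of Tfam-201 in the gene annotation, which places the start further upstream than RefSeq. A match is a description of the letters and not evidence that the factor binds. Of 11 listed NRF1 target genes with a promoter, 5 held the NRF1 letters, and these were Alas1, Cycs, Polrmt, Sdhb and Tfb2m. The ERR letters were in 0 of 11 ERR targets with a promoter, and the PPAR and RXR letters in 0 of 24 PPAR alpha and PPAR delta targets. These letters are so rare over all genes (0.456% and 0.0486%) that 0 is the likely count in lists of this size. The counts of 0 therefore say little about these targets or about the 9 regulators.

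The partners and regulators of the circuit were all at 1 TPM or more in both libraries, against 59.1% of nuclear protein-coding genes. All 9 other coactivators reached 1 TPM in both libraries, led by the Mediator subunit Med1 (38.05 and 38.92 TPM), the PGC-1 relative Pprc1 (19.0 and 15.5 TPM) and the acetyltransferase Crebbp (16.8 and 17.3 TPM). So did all 7 corepressors and deacetylases, led by Ncor1 (89.0 and 57.3 TPM), Hdac3 (68.8 and 69.7 TPM) and the mitochondrial deacetylase Sirt3 (51.7 and 43.2 TPM). The 10 upstream kinase genes were also all expressed. The AMPK gamma subunits Prkag2 (86.9 and 99.2 TPM) and Prkag1 (88.8 and 84.1 TPM) and the catalytic subunit Prkaa2 (41.5 and 36 TPM) led them. Gabpa, a factor that acts beside NRF1, stood at 27.8 and 28.3 TPM, level with Nrf1. All 11 genes that act with TFAM on mitochondrial DNA and RNA were expressed, led by the RNA-stabilising pair Slirp (181 and 177 TPM) and Lrpprc (64.6 and 54.8 TPM) and the single-strand binding protein Ssbp1 (81.5 and 101 TPM).

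Most target genes of fatty acid use and respiration were expressed, at levels well above those of most protein-coding genes. Of 32 listed PPAR alpha and PPAR delta targets, 28 were at 1 TPM or more in each library, again against 59.1% of nuclear protein-coding genes. Their list median was 42.8 TPM, against 3.67 TPM over all nuclear protein-coding genes. Leading them were the fatty acid carrier Fabp3 (1666 and 1530.4 TPM) and the beta-oxidation enzymes Acadl (722 and 737 TPM) and Hadhb (427 and 390 TPM). The 4 targets under 1 TPM in both were Creb3l3 (0.59 and 0.79 TPM), the uncoupling protein Ucp3 (0.21 and 0.24 TPM), and the omega-hydroxylases Cyp4a10 and Cyp4a14, which had 0 counts. Zero counts allow up to 0.0567 and 0.0511 TPM of Cyp4a10 and 0.0801 and 0.0722 TPM of Cyp4a14. All 14 ERR targets were expressed, with a median of 325 TPM, led by the ATP synthase subunit Atp5b (5683 and 5703 TPM), the ADP/ATP carrier Slc25a4 (2438 and 2299 TPM) and Sdhb of complex II (967 and 927 TPM). The 14 NRF1 targets, of which some are also in the ERR list, were all expressed with a median of 236 TPM. Cox4i1 (2031 and 1919.6 TPM), Cox6c (1740.2 and 1776 TPM) and Uqcrq (1160.4 and 1131 TPM), all of the respiratory chain, led them.

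PPAR gamma is known for the fat cell program. Of 12 listed PPAR gamma and fat cell genes, 3 reached 1 TPM in both libraries, against 59.1% of nuclear protein-coding genes, and 8 were under 1 TPM in both. Fabp4, a fatty acid carrier that endothelial cells also make, stood at 237 and 226 TPM, and its cell source was not tested. The lipid droplet gene Cidea stood at 12.7 and 11.1 TPM and the lipase Lipe at 6.60 and 5.87 TPM. Adipoq stood at 0.09 and 0.08 TPM, Pck1 at 0.13 and 0.11 TPM and Plin1 at 0.02 and 0 TPM. Cidec, Retn and Cfd were at 0 in replicate 1 and at 0.23, 0.04 and 0.04 TPM in replicate 2, and Lep and Ucp1 had 0 counts in both. For Lep, 0 counts allow up to 0.0645 and 0.0581 TPM, and for Ucp1 up to 0.0727 and 0.0655 TPM. Cebpa, at 1.11 and 0.73 TPM, was under 1 TPM in replicate 2.

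**Figure D5:**
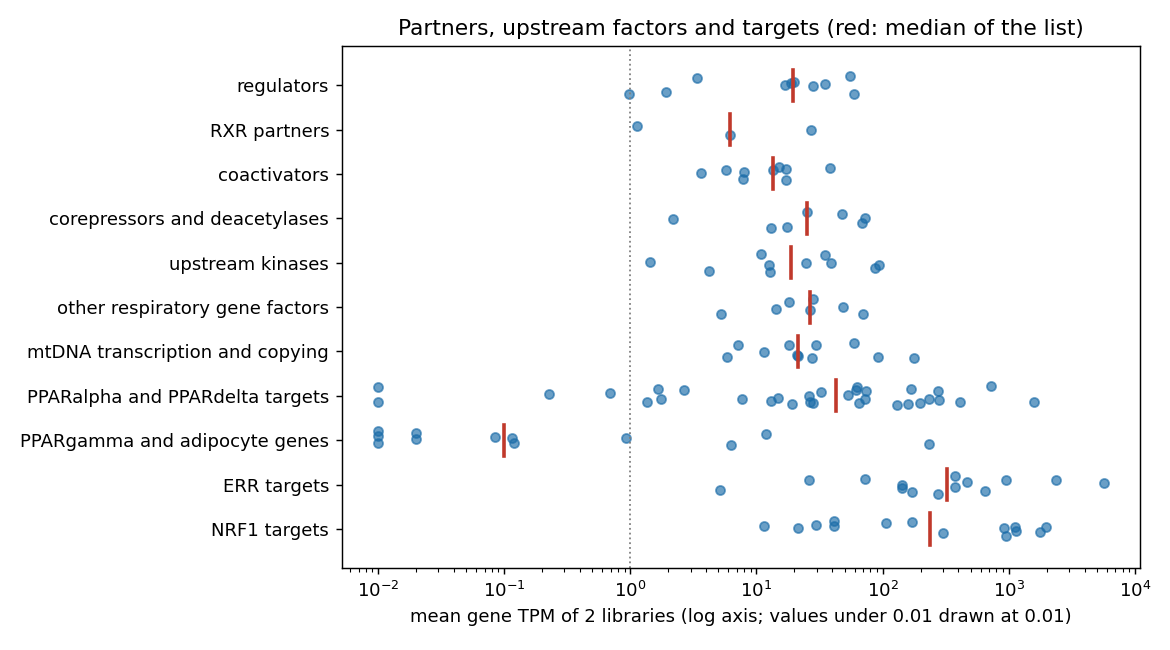
Mean gene TPM of the 2 libraries (log axis) for the regulators and each list of partners, upstream factors and targets, with 1 point per gene and the list median in red; values under 0.01 TPM are drawn at 0.01. The medians of the ERR and NRF1 targets, 325 and 236 TPM, lie above all 10 regulators, and that of the fat cell genes lies at 0.1 TPM.

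Of the 99 list genes averaging 1 TPM or more, each counted once, 2 were over 1.5-fold apart, where 7.11% of all protein-coding genes at that level were. That share was 3.36% at a mean of at least 5 TPM, and the 112 list genes had a median of 26.9 TPM. The median log2 ratio of the 99 genes was -0.015, against -0.012 over all protein-coding genes averaging 1 TPM or more. The 2 genes, chosen after their values were seen, were the kinase Camk4 (1.16 and 1.71 TPM), which is also known from T cells, and the lipid droplet gene Plin5 (2.26 and 1.27 TPM). Camk4 was higher in replicate 2, where the thymus markers were higher too, and their part in this difference was not tested.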

How the data were processed

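Whole embryonic mouse hearts were measured by total RNA sequencing in 2 libraries, taken as replicates of a single group per the labels. Per the file headers, the authors' quantification used mouse build mm10 and the GENCODE release M4, separately for each library. The deposited estimated counts can be fractional, and posterior means and intervals of the levels stand beside them, with no confidence level stated. TPM values, as deposited by the authors, are scaled over all rows with the spike-ins, and effective lengths are 99 bases under the lengths. Transcript shares are deposited as a percent of the TPM of the gene. No source used here names the aligner, the quantification tool or the use of strand.

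Gene names, transcript classes, coding lengths and coordinates came from GENCODE M21 on GRCm38, by identifier without version. Of 63 transcripts of the 10 genes, 62 matched and 53 had the same length in M21, so classes and exon structures of the others apply to revised models. Rows matched to neither a mouse gene nor a spike-in held 0.150% and 0.163% of the counts and stayed out of the scaling. Library ratios used estimated counts rounded to whole numbers, with 0.5 added, and TMM factors of edgeR 4.0.16 from 17056 genes that had 10 counts or more per library. DESeq2 1.42.0 gave the alternative size factors. Intervals of ratios are exact (Clopper-Pearson) 95% intervals of the split of counts. The labels name no molecular identifiers, so several reads may come from 1 molecule, and these intervals, the deposited ones and the limits that 0 counts allow (3 counts) cover counting error only. The ratio steps were tested on simulated data. The smallest p that an exact sign-flip test (two-sided) of 2 libraries can give is 0.5, and no test was run.

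The members, gene lists, pairs and markers were chosen with earlier results of these data known. The text names all 10 genes, their transcripts with 5% or more in either library, all RXR partners, the 3 highest genes of each other list and list genes under 1 TPM in both libraries; other names were chosen after their values were seen. Promoters of 1 chromosome were not used. A search of receptor and coactivator protein sequences, planned beside that of promoters, was not made. Alternatives tried were posterior mean TPM, rescaling over mouse genes, other minimums, added constants, scaling methods, counts without length correction, each library alone and, added after seeing the data, full coding transcripts only.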

Additional observations from a re-analysis of the deposited data

How the results depend on the processing

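All 9 gene pairs kept their order under posterior mean TPM and with 0.1 or 1 TPM added, and in each library alone. In counts with no length correction, the log2 ratio of Esrra to Esrrg fell to 0.26 and that of Nrf1 to Tfam to -0.12, and neither was then apart. With full coding transcripts only, an alternative chosen after seeing the data, Nrf1 to Tfam reversed to 0.62 under the 90% cut. This reversal depends on the cut, which leaves out Tfam-202 (2.47 and 20.03 TPM), and no other cut was tried. Ppargc1a to Ppargc1b went to -0.016, with the libraries on either side of 0 (-0.18 and 0.15). The number of regulators over 1.5-fold apart between libraries, 0 by TMM, DESeq2 size factors, total counts or TMM without a filter, was 1 from TPM with 0.1 added, which was Ppard, and 10 by spike-in totals. The share of protein-coding genes over 1.5-fold apart was 3.36% at a mean of at least 5 TPM and 17.9% with no minimum, against 7.11%. The number of regulators with full coding transcripts under 50%, also counted after seeing the data, was 2 by TPM and 0 by share of counts, in which long transcripts weigh more. For the other changes the cause was not tested. Of the 31 transcript shares recomputed from posterior means, 5 moved by more than the SD of the 2 libraries. Low counts limit Ppard, Pparg and Esrrb, and the split among overlapping transcripts limits Tfam and Ppargc1a. No paired analysis was possible because there is 1 group.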
